A study of Mus musculus with 8 samples.

Results

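The glutathione S-transferase family was followed as 10 genes, Gsta2, Gsta3, Gsta4, Gstm1, Gstm2, Gstm3, Gstm4, Gstm6, Gstp1 and Gstt1, in livers of 4 controls and of 4 mice with a liver-specific loss of Mfn1 (Mfn1 LKO). The members were taken by gene symbol in the platform annotation, which gave 17 of the 25697 probes of an Illumina mouse bead array and 10 of 16593 annotated genes. All mice were C57Bl6/Ntac and were fed high fat chow over 8 weeks, with a fast of 6 hours. The titles of both groups carry the name AlbCre, a Cre recombinase driven by the albumin promoter and therefore active in hepatocytes, while the control genotype is given as Mfn1 wildtype. Whether the controls carried the Cre transgene is thus not settled by the labels, and an effect of Cre itself could not be told apart from the loss of Mfn1. Each array held the RNA of 1 mouse, named here by its number in the sample title, and age and sex are not given in the labels used here.

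Glutathione S-transferases join the thiol of glutathione to electrophilic compounds, which makes them more water-soluble and marks them for export from the hepatocyte. The soluble enzymes are dimers grouped by sequence into classes, here alpha (Gsta), mu (Gstm), pi (Gstp) and theta (Gstt), and liver is among the tissues richest in them. In rodent liver many of these genes are raised by the transcription factor NRF2, which binds antioxidant response elements with a small Maf partner, and by the xenobiotic receptors CAR and PXR. The targeted gene Mfn1 encodes an outer membrane GTPase of mitochondrial fusion.

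Values are normalised log2 signals unless an intensity is named, and differences are Mfn1 LKO minus control with limma's 95% interval. Before normalization the arrays had median intensities between 96.4 and 103.9, and the lowest normalised log2 signal of any probe was 5.65 against a median of 6.02. Mfn1 itself read between 8.57 and 8.69 in controls and between 6.95 and 7.22 in the Mfn1 LKO group (difference -1.54, limma adjusted p = 4.05e-06), with no overlap. It was the only one of 8815 genes tested to pass an adjusted p of 0.05 (0.0113% of genes), and 2 of 12755 probes did (0.0157%). Of 13 hepatocyte markers 8 passed the filter on dim probes. Of these, 7 were higher and 1, Cyp3a11 (-0.31), was lower, with a median of 0.076, where 44.6% of all genes lay above 0. The smallest p belonged to Tdo2 (0.46, limma adjusted p = 0.270), whose groups did not overlap, as in 6.11% of all genes. Ttr and Apoa1, secreted by hepatocytes, lay between 13.90 and 14.12 in all 8 mice, while the probe for albumin (Alb) was dim, between 6.01 and 6.63. In bulk liver, fewer cells of a type and less RNA per cell cannot be told apart.

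No member of the family differed between the groups past the test. Of the 9 member genes that passed the filter, 0 reached an adjusted p of 0.05 with limma, and 1, Gstp1, had an unadjusted p under 0.05, where 10.6% of all genes tested did. Of the 16 member probes that passed, 2 had an unadjusted p under 0.05, against 10.7% of all probes tested. The differences were above 0 in 6 genes and below 0 in 3, where 44.6% of all genes lay above 0, with a median of 0.0092 on the log2 scale, where the median over all genes was -0.012. The median size of a difference, without its sign, was 0.048 in the family and 0.061 over all genes. For 8 of the 9 genes the 95% interval lay within 0.5 log2 units of 0, as it did for 94% of all genes tested, and the exception was Gsta2. A gene was kept if 1 of its probes exceeded the median signal on 4 or more of the 8 arrays, which removed Gstm3.

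**Figure D1:**
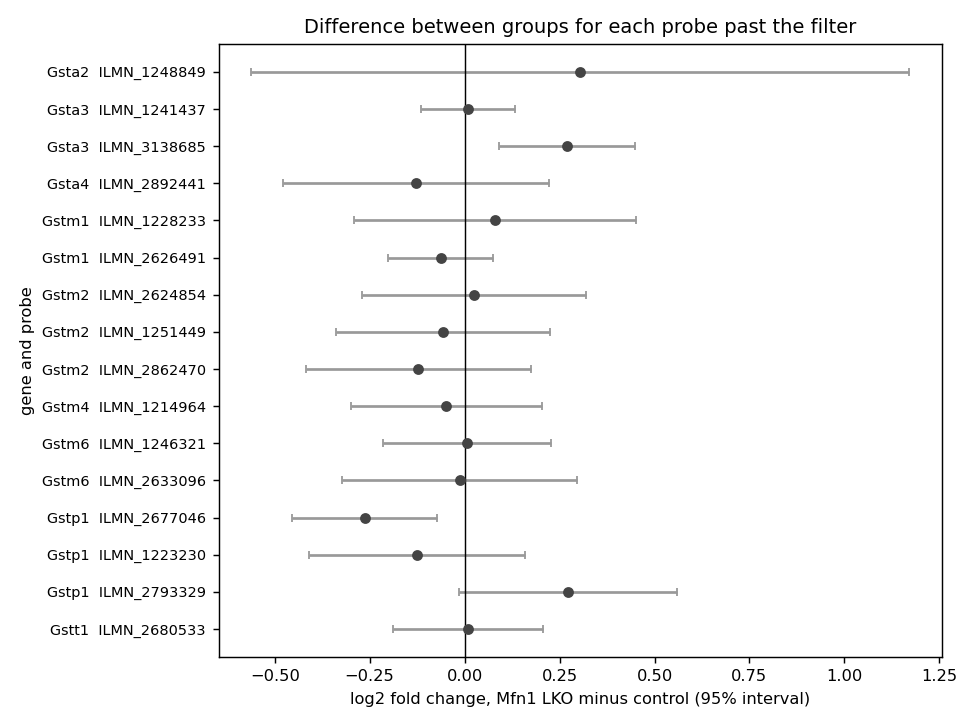
Log2 fold change (Mfn1 LKO minus control) with its 95% interval for each of the 16 member probes past the filter, from limma on 4 mice a group. The interval of 1 Gstp1 probe lies below 0 and that of 1 Gsta3 probe above 0, and neither passed adjustment over all probes.

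Gstp1, the pi class transferase, which in mouse liver is higher in males, had the lowest p among the member genes. Its brightest probe, ILMN_2677046, read 13.72, 13.45, 13.30 and 13.41 in controls 641, 658, 661 and 663, against 13.17, 13.28, 13.24 and 13.13 in knockouts 637, 638, 651 and 701. The groups did not overlap, but the gap between control 661 and Mfn1 LKO mouse 638 was narrow, and control 641 stood highest. The group means were 13.47 ± 0.18 and 13.21 ± 0.067 (SD, n = 4 each). The difference was -0.26 (interval -0.45 to -0.071, limma adjusted p = 0.325), with an unadjusted limma p of 0.0122. As unnormalised intensities the same probe gave 11309 ± 1955 in controls and 9486 ± 919 in Mfn1 LKO livers. These intensities overlapped, with control 661 (9442) below Mfn1 LKO mice 638 (10457) and 651 (9891). In the deposited log2 values the difference was also -0.26. Groups that did not overlap were found in 1 of 9 member genes and in 6.11% of all genes tested (3.2% with the Mfn1 LKO group lower), and in 1 of 16 member probes against 6.15% of all probes. When arrays were scaled by their median or 75th percentile, or by cyclic loess, the Gstp1 groups overlapped.

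Gstp1 had 2 other probes. ILMN_1223230 read 12.81, 12.40, 12.11 and 12.28 in the controls against 12.20, 12.35, 12.35 and 12.20 in the knockouts, in the same order of mice. The groups overlapped, with a difference of -0.13 (interval -0.41 to 0.16). Without control 641, the highest mouse on both bright probes, the difference was 0.0096 on this probe and -0.18 on ILMN_2677046. The dim probe ILMN_2793329 lay between 6.25 and 7.08 and gave a difference of 0.27, opposite in sign (interval -0.015 to 0.56, limma adjusted p = 0.493). The mean of the 3 Gstp1 probes differed by -0.039 (limma adjusted p = 0.934). The ratio of the brightest to the dim probe differed between groups by -0.53 on the log2 scale (exact permutation p = 0.0286, the smallest that 4 against 4 mice allow, and 0.0643 after adjustment over the 9 probe pairs of the family).

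Gstp2, a near copy that lies beside Gstp1 and is no member of the list, read 8.70 in control 641 and between 6.48 and 7.25 in the other 7 mice. Control 641 was the highest mouse for Gstp2 and for both bright Gstp1 probes, but not for the dim Gstp1 probe, which was highest in mouse 638 (7.08 against 6.84 in 641), nor for Gstp3 (8.81, against 8.93 in control 663). It also had the highest mean of the 9 tested male-biased liver genes, 9.85 against 8.38 to 8.93 in the other controls and 8.52 to 9.44 in the knockouts, and was the highest mouse for 4 of them. Among these, chosen after their values were seen, Hsd3b5 read 9.22 in control 641, 8.37 in knockout 637 and between 5.96 and 7.09 in the other mice. The part of this in the Gstp1 difference was not tested. The files used here do not tell how far a probe of either gene also binds the other's transcript.

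The window around the Gstp1 start is shown because this gene had the lowest p among the member genes. It is 300 bases from RefSeq on GRCm38.p6, chr19:4037863-4038162 on the minus strand, printed 5′ to 3′ from 250 bases before the start to 50 after it. Capitals mark a match to the AP-1 motif TGANTCA, which begins at position -74 from the start.
Gstp1: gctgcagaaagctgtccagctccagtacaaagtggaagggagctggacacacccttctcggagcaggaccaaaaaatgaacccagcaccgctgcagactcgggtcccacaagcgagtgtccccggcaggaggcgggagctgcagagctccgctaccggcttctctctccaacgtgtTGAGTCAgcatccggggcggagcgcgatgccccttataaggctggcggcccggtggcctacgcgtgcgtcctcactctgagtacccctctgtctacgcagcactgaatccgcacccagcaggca
The 3 motifs searched on both strands of every window were the antioxidant response element core TGACNNNGC, the AP-1 motif TGANTCA and the TATA box TATAAA. TGACNNNGC was found in 12.4% of 32851 windows, TGANTCA in 7.81% and TATAAA in 13.6%. Counted by gene, with a match in any of its windows, the shares were 14%, 8.97% and 15.7% of 27025 genes. TGANTCA reads nearly alike on both strands and was counted once per position. Windows were found for 9 of the 10 members, with 13 windows in all, and TGANTCA was matched in 1 gene, Gstp1, TGACNNNGC in 1, Gsta3, and TATAAA in 2. A match is a description of the letters and not a site.

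**Figure D2:**
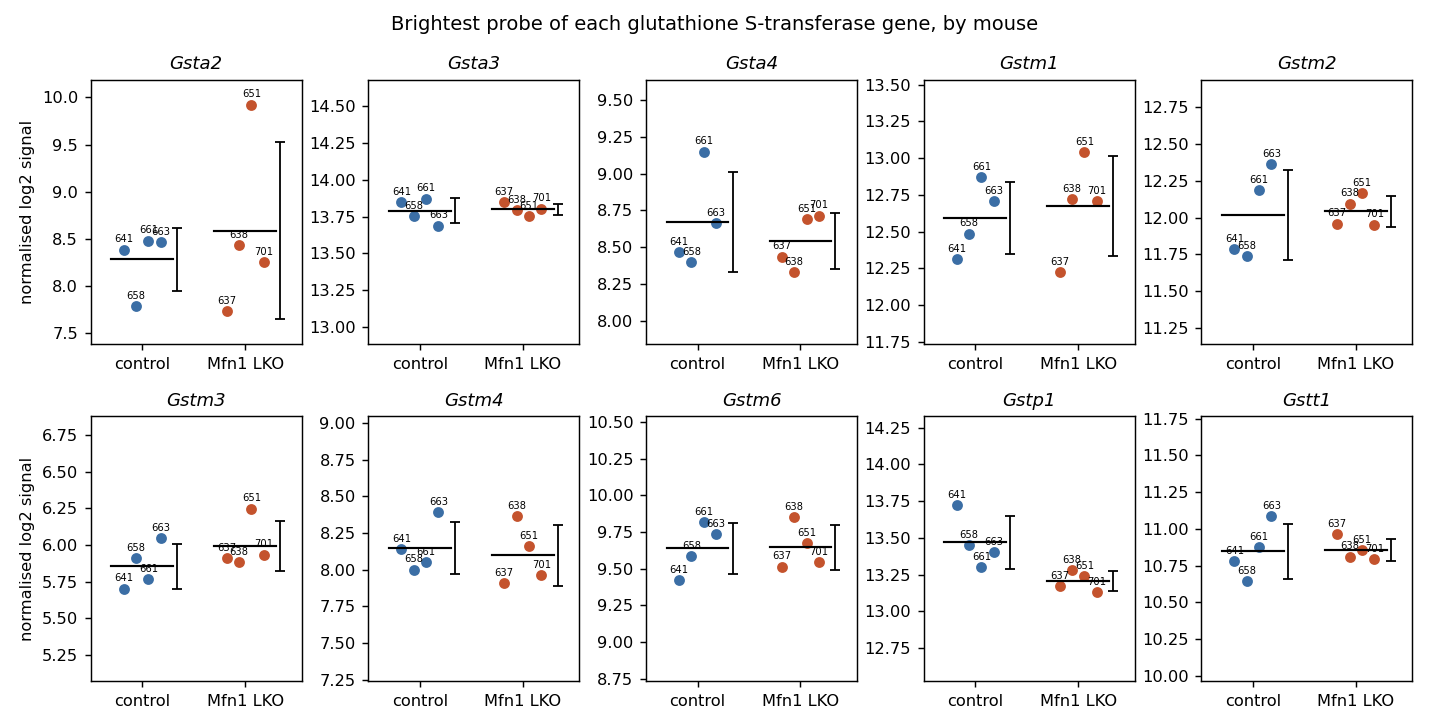
Normalised log2 signal of the brightest probe of each of the 10 member genes in each of 8 mice, numbered, with the group mean (line) and SD (bar, n = 4 a group). The axes differ in range. The Gstp1 groups lie apart, Gsta2 has 1 high Mfn1 LKO mouse (651, at 9.92), and the other groups overlap.

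Among the alpha class genes, Gsta3, whose mouse enzyme detoxifies the aflatoxin epoxide, was read by 2 probes. The brighter probe, ILMN_1241437, read 13.85, 13.75, 13.87 and 13.69 in controls 641, 658, 661 and 663, against 13.85, 13.79, 13.75 and 13.80 in knockouts 637, 638, 651 and 701. These ranges overlapped throughout, with a difference of 0.0095 (interval -0.11 to 0.13, limma adjusted p = 0.975). This probe lay between percentiles 99.8 and 99.9 of its arrays, where quantile normalization gave mice of both groups identical values. The difference was 0.030 with scaling to a common median and 0.045 with cyclic loess. As unnormalised intensities it gave 14165 ± 1306 in controls and 14526 ± 898 in Mfn1 LKO livers. The second probe, ILMN_3138685, read 9.95, 9.76, 9.78 and 10.09 in the controls against 10.20, 10.26, 10.12 and 10.07 in the knockouts. Only control 663 reached the Mfn1 LKO range, above mouse 701, and the group means were 9.89 ± 0.16 and 10.16 ± 0.083 (SD, n = 4 each). The difference was 0.27 (interval 0.089 to 0.45, limma adjusted p = 0.291), with an unadjusted limma p of 0.00752. The mean of both probes differed by 0.14 (limma adjusted p = 0.365). The difference between these probes in their response was -0.26 on the log2 scale (brighter minus second probe, exact permutation p = 0.114, adjusted p = 0.171 over the 9 pairs). Both probes carry the same gene symbol, and the transcripts each one reads were not analysed here.

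The Gsta3 window, chr1:21240335-21240634 on the plus strand of GRCm38.p6, is shown as the only member window with a match to the antioxidant response element core. Capitals mark that match, which begins at position -121 from the start.
Gsta3: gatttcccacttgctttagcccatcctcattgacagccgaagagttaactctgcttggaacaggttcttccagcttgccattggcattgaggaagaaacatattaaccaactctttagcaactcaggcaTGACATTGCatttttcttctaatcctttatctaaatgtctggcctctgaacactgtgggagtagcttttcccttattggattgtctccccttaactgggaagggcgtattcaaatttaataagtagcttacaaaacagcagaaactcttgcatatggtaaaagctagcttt

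Gsta2, an alpha class gene known in mouse liver for its induction by antioxidants, varied most between mice. Its probe read 8.39, 7.79, 8.48 and 8.47 in controls 641, 658, 661 and 663, against 7.74, 8.44, 9.92 and 8.25 in knockouts 637, 638, 651 and 701. Mouse 651 stood more than 1 log2 unit above every other mouse, and mouse 637 was the lowest. In intensities, mouse 651 read 1154 and the other 7 mice between 228.2 and 447.8. The group means were 8.28 ± 0.33 and 8.59 ± 0.94 (SD, n = 4 each), a difference of 0.31 (interval -0.57 to 1.18, limma adjusted p = 0.837). Without mouse 651 the difference was -0.14. The spread of Gsta2 within groups lay at percentile 99.7 of the genes tested. Gsta1, the close relative of Gsta2, showed the same order at its ends, with 10.70 in mouse 651 and 7.92 in mouse 637, and between 8.31 and 9.48 in the other mice.

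Gsta4, the alpha class enzyme that acts on hydroxynonenal, a product of lipid peroxidation, read 8.47, 8.40, 9.15 and 8.67 in the controls against 8.44, 8.33, 8.69 and 8.71 in the knockouts, in the same order. Control 661 was the highest and the groups overlapped. The difference was -0.13 (interval -0.48 to 0.22, limma adjusted p = 0.830), and 0.033 without control 661.

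The mu class genes Gstm6, Gstm3, Gstm2, Gstm1 and Gstm4 are consecutive protein-coding genes on the chromosome that also carries Mfn1, at positions 630 to 634 after it in the order of RefSeq protein-coding genes (GRCm38.p6). Gstm3 did not pass the filter, and the other 4 did not differ between the groups past the test. Gstm1, the chief mu class subunit of mouse liver, read 12.31, 12.49, 12.87 and 12.71 in controls 641, 658, 661 and 663, against 12.22, 12.72, 13.04 and 12.71 in knockouts 637, 638, 651 and 701. The lowest and the highest mouse were both Mfn1 LKO mice, and the difference was 0.080 (interval -0.30 to 0.46, limma adjusted p = 0.910). Its second probe was dim, between 6.21 and 6.43, and gave -0.063.

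Gstm2, another mu class subunit, had 3 probes. The brightest read 11.79, 11.74, 12.19 and 12.36 in the controls against 11.96, 12.09, 12.17 and 11.95 in the knockouts. The Mfn1 LKO mice lay between the lower and the higher pair of controls. Its difference was 0.025 (interval -0.27 to 0.32, limma adjusted p = 0.972), and the other probes gave -0.057 and -0.12. The SD was 0.30 among controls and 0.11 among Mfn1 LKO livers. The brightest probe's difference lay above those of the other probes by 0.082 and 0.15 (exact permutation p = 0.0286 for each, adjusted p = 0.0643 over the 9 pairs).

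Gstm4 read between 8.00 and 8.39 in controls and between 7.91 and 8.36 in Mfn1 LKO livers, with a difference of -0.048 (interval -0.30 to 0.21). Gstm6 lay between 9.42 and 9.81 in controls and between 9.51 and 9.85 in Mfn1 LKO livers, with a difference of 0.0054 (interval -0.22 to 0.23) and -0.013 on its second probe. The limma adjusted p was 0.920 for Gstm4 and 0.992 for Gstm6. Gstm3 was above its array's median in 2 of 8 arrays. It read 5.70, 5.91, 5.77 and 6.05 in the controls against 5.91, 5.89, 6.25 and 5.93 in the knockouts, near the lowest signals of the array. With no filter its difference was 0.14 (interval -0.068 to 0.34), which at signals this low sets no limit on a change in its transcript.

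Gstt1, the theta class enzyme that acts on small halogenated compounds, read 10.78, 10.64, 10.88 and 11.09 in the controls against 10.97, 10.81, 10.85 and 10.80 in the knockouts. The Mfn1 LKO range lay inside that of the controls, with a difference of 0.0092 (interval -0.19 to 0.21, limma adjusted p = 0.985).

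Several members varied widely between mice of 1 group. Of the 9 genes, 4 (Gsta2, Gsta4, Gstm1 and Gstm2) had a spread within groups above the 90th percentile of all genes tested, and the median member lay at percentile 89.6. Some members were high in the same mice. In control 663 the signal was above the gene's own mean in 8 of 9 genes, in control 661 and Mfn1 LKO mouse 651 in 7, and in Mfn1 LKO mouse 638 in 5. It was below the mean in 8 genes in control 658, in 7 in Mfn1 LKO mouse 637, and in 6 in control 641 and Mfn1 LKO mouse 701. Across the 8 mice the Pearson correlation between pairs of members was over 0.5 in 9 of 36 pairs (25%), where 12.5% of all gene pairs were, given as a description of arrays that share 1 processing. The highest values were 0.79 for Gstm2 with Gstt1 and 0.78 for Gsta2 with Gstm1, and the lowest was -0.55 for Gsta3 with Gstm4. Gstp1 was negatively correlated with the mu class genes Gstm1 (-0.37), Gstm2 (-0.35) and Gstm6 (-0.32), but positively with Gstm4 (0.28).

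**Figure D3:**
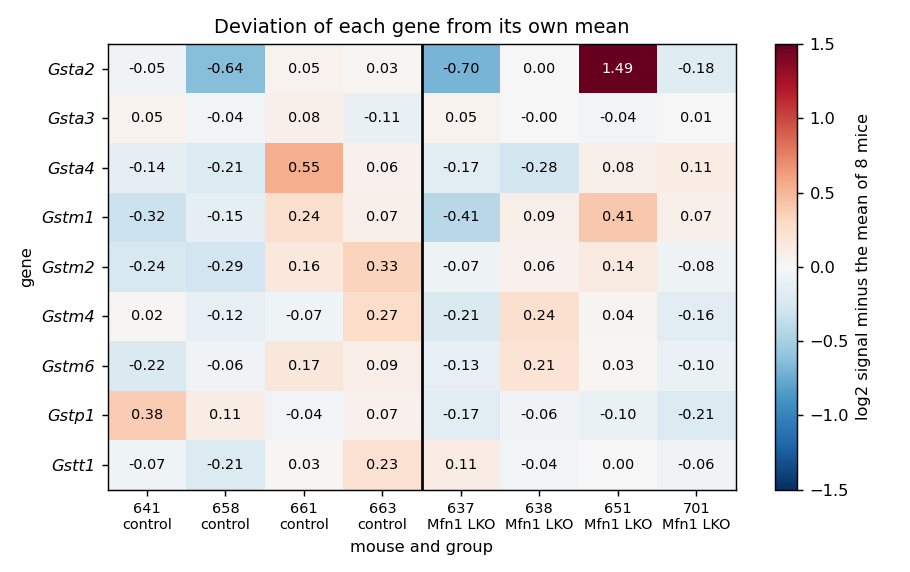
Log2 signal minus the gene's mean over 8 mice, for each of the 9 member genes tested (rows) in each mouse (columns, controls left of the line), with the value in each cell. Controls 661 and 663 and Mfn1 LKO mouse 651 are above the mean in most rows, and controls 641 and 658 and Mfn1 LKO mouse 637 below it.

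The brightness of the arrays moved with this pattern. Before normalization, controls 661 and 663 and Mfn1 LKO mice 638 and 651 had median intensities between 102.6 and 103.9, and the other 4 arrays, also 2 of each group, between 96.4 and 98.6. After normalization 5 of the 9 member genes were still higher in the brighter arrays in both groups, where 30.6% of all genes were. The part of array brightness in the pattern was not tested. Within the dimmer arrays the group difference of Gstp1 (ILMN_2677046) was -0.43 and within the brighter arrays -0.092. For ILMN_3138685 of Gsta3 it was 0.28 and 0.26. For ILMN_1223230 of Gstp1 it was -0.40 and 0.15. Only Gstm1 and Gstp1 among the 9 genes had a difference of the same sign in both sets. With the sets as a block, 0 member genes passed (Gstp1 limma adjusted p = 0.311).

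Windows of Gsta2 and Gstm1 are shown because these genes, of different classes and chromosomes, had the closest tie between classes other than Gstm2 with Gstt1. The windows of Gstm2 and Gstt1 held no match to the motifs searched and are not shown. Those printed are chr9:78347096-78347395 for Gsta2 and chr3:108017769-108018068 for Gstm1, both on the minus strand of GRCm38.p6. Capitals mark matches to the TATA box, which begins at position -30 from the start in Gstm1 and, on the opposite strand, at -246 in Gsta2.
Gsta2: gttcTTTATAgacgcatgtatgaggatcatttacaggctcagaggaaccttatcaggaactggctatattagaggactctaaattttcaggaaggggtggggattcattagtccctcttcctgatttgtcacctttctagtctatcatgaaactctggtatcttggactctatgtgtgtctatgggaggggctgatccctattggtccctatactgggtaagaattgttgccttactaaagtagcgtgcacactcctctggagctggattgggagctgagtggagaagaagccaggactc
Gstm1: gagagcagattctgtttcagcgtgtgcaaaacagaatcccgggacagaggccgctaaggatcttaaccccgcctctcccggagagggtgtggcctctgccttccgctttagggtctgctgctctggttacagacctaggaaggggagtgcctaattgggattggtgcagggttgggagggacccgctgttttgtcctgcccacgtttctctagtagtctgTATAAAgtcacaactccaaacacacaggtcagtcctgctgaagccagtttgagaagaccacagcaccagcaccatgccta
Neither window held a match to TGACNNNGC, which says only that these letters are not in it.

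The genes whose signal over the 8 mice was most like the mean of the 9 members were Usp22 (Pearson r = 0.99), Pja2 (0.96), B230219D22Rik (0.96), Smad5 (0.95) and Stt3b (0.95), out of all genes tested other than glutathione transferases. Usp22, a subunit of a histone deubiquitinase, read 7.92 in Mfn1 LKO mouse 651 and 7.53 in control 658, and its groups differed by -0.0044. These are the highest correlations among the genes tested, over 8 mice, given as a description.

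Other glutathione transferases did not differ past the test either. Of 18 further genes of these families on the list, 12 were tested, 4 were higher and 8 lower, none with an unadjusted p under 0.05, and the median difference was -0.031, or 0.014 without control 641. The smallest p belonged to Gstt3 (0.24, interval -0.075 to 0.56), Gstm5 (0.19, interval -0.059 to 0.43) and Gstcd (-0.079, interval -0.20 to 0.039). The Gstcd probe was dim, with means of 6.04 in controls and 5.96 in the knockouts. The microsomal transferase Mgst1 gave -0.0084 and Gstk1, the kappa class enzyme of mitochondria and peroxisomes, -0.0013.

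Genes that make glutathione and genes that use it in other ways had values on both sides of 0. None of them passed an adjusted p of 0.05. Over all genes tested 5.85% were higher and 4.73% lower at an unadjusted p under 0.05. In glutathione synthesis and turnover 1 of 12 tested genes had an unadjusted p under 0.05, Gclc, the catalytic subunit of the rate-limiting ligase, at 0.29 (interval 0.050 to 0.53, limma adjusted p = 0.375). The Gclc probe was dim, with means of 6.51 in controls and 6.80 in the knockouts. Gclm, the partner of Gclc, gave -0.010 and Gss, glutathione synthetase, -0.025. The next smallest p belonged to Chac2, which degrades glutathione, at 0.087 and Cbs, which leads homocysteine towards cysteine, at -0.21. Among peroxidases and thiol transfer genes 5 of 12 had an unadjusted p under 0.05, 4 higher and 1 lower, with a list median of 0.085. The smallest p belonged to Glrx3, a glutaredoxin, at 0.44 (interval 0.19 to 0.68), Gpx3, the secreted glutathione peroxidase, at 0.20 (interval 0.059 to 0.35), and Esd, which hydrolyses formylglutathione, at 0.43 (interval 0.054 to 0.81). The limma adjusted p of these was 0.257, 0.319 and 0.403, and the Gpx3 groups did not overlap, as in 6.11% of all genes tested. In conjugate export and processing 1 of 10 had an unadjusted p under 0.05, Kyat3, a cysteine conjugate lyase, at -0.45 (interval -0.73 to -0.16, adjusted p = 0.277). Abcc2, the canalicular exporter of glutathione conjugates, gave -0.081 and Slco1a4, an uptake transporter, 0.16.

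Targets and regulators shared with the family were read the same way. Of 19 NRF2 target enzymes 2 had an unadjusted p under 0.05, against 10.6% of all genes tested. These were Txn1, thioredoxin, at 0.59 (interval 0.28 to 0.90) and Txnrd1, its reductase, at 0.15 (interval 0.026 to 0.27). For both the groups did not overlap, as in 6.11% of all genes tested. The Txnrd1 probe was dim, with means of 5.99 in controls and 6.14 in the knockouts, where the median signal of all probes was 6.02. Me1, malic enzyme, gave 0.45 and Nqo1, a classical target, 0.012. The Nqo1 probe was also dim, between 6.41 and 6.82. Of 20 xenobiotic receptor target enzymes 3 were higher at this level and 1 lower, with the smallest p in Aldh1a1 (0.43, interval 0.23 to 0.64), Ugt2b34 (0.54, interval 0.21 to 0.87) and Ugt1a6a (-0.19, interval -0.35 to -0.029). Of 16 regulators 2 were lower at this level, Mafg, a small Maf partner of NRF2, and Bach1, a repressor that competes with NRF2. Mafg read 9.36, 9.39, 9.36 and 9.40 in the controls against 9.14, 9.11, 9.26 and 9.04 in the knockouts, a difference of -0.24 (limma adjusted p = 0.240). Bach1 gave -0.26 (limma adjusted p = 0.272), and for both genes the groups did not overlap. Nfe2l2, the gene of NRF2, gave -0.058, Keap1, its inhibitor, 0.018, and the genes of PXR (Nr1i2) and CAR (Nr1i3) 0.039 and 0.051. Hnf4a, a master regulator of hepatocytes, gave 0.10.

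**Figure D4:**
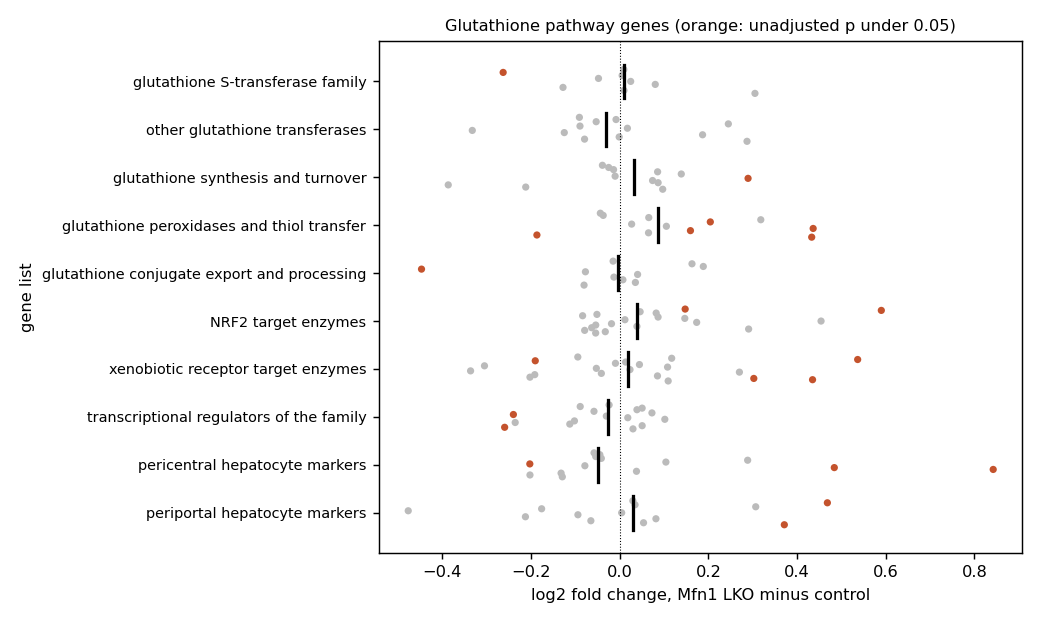
Log2 fold change (Mfn1 LKO minus control) of each tested gene of the family, of 7 lists of related genes and of 2 lists of liver zonation, with the list median as a line. Orange points have an unadjusted limma p under 0.05, and no point passed adjustment over all genes.

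Many alpha and mu class genes are stronger around the central vein, and zonation markers were therefore set beside them. Of 14 pericentral markers 5 were higher and 9 lower with a median of -0.049, and of 13 periportal markers 8 were higher and 5 lower with a median of 0.030. The smallest p belonged to Glul (0.48), Cyp7a1 (0.84) and Lgr5 (-0.20) among the pericentral and to Aldh1b1 (0.37), Pck1 (0.47) and Etnppl (-0.48) among the periportal markers, none past adjustment. Of 23 macrophage markers 16 were tested, and all 16 had a difference above 0, as 44.6% of all genes did, with a median of 0.27. An unadjusted limma p under 0.05 was found for 7 of them, against 10.6% of all genes, and an adjusted one for 0, and their mean signal lay between 7.59 and 7.93 in controls and between 7.72 and 8.25 in Mfn1 LKO livers. With that mean as a covariate the differences were -0.25 for Gstp1, -0.096 for Gsta2 and -0.14 for Gstm1, and between -0.20 and 0.15 for the other 6 genes, with Gstt1 at 0.15 and Gstm2 at 0.11. The unadjusted limma p of Gstp1 was then 0.0645, and Gsta3 probe ILMN_3138685 gave 0.39 (limma adjusted p = 0.623). Bile duct cells also express Gstp1, and 5 of 10 of their markers were tested, with mean signals between 6.05 and 6.12 in controls and between 6.05 and 6.18 in Mfn1 LKO livers, near the lowest of the array. Krt19 and Cftr did not pass the filter. Krt7 gave -0.11 and Sox9, opposite in sign, 0.15, and the groups did not overlap for either, as in 6.11% of all genes tested. The part of bile duct cells in the Gstp1 difference was not tested.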

How the data were processed

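Signal was measured on Illumina bead arrays, 1 per mouse, from total RNA labelled with biotin by the TotalPrep kit, according to the labels. The authors deposited linear intensities for 25697 probes, none below 81.0, and log2 values of the same arrays, within 0.0066 of quantile normalized log2 intensities. No source used here gives the scanner software or its settings, and 0 columns of other samples were present.

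Intensities were corrected with normexp (offset 50), quantile normalized and put on the log2 scale. This offset makes the differences of dim genes smaller than a lower offset does. For the dim Gstp1 probe ILMN_2793329 the difference was 0.27 with it, 0.41 with an offset of 16 and 0.20 without background correction. A probe was kept if it exceeded the median on 4 or more arrays (12755 probes), and the brightest per gene taken (8815 genes). Groups were compared by two-sided tests in limma 3.58.1 under R 4.3.3, and p-values were adjusted by Benjamini and Hochberg's method over all genes or probes. The test was checked on simulated data. Probe pairs were compared with exact two-sided permutation over 70 arrangements. Symbols come from the platform annotation. All members with all probes were named, and of each related list the 3 genes with the smallest p, with Mfn1 and the 5 genes most like the family mean. Others were named after their values were seen. Members and lists were chosen with earlier results of these data known. The limma p-values set each difference against the spread between mice within groups, moderated over all genes or probes. The exact p-values place the observed difference among the 70 arrangements. The number of arrays limits precision. Alternatives changed background correction, scaling, filter, probe rule, variance model, covariate or left out a mouse. Figures used matplotlib 3.10.9.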

Additional observations from a re-analysis of the deposited data

Results flagged for a closer look

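Among 34 sets of 4 mice (17 probes in 2 groups), 2 had a mouse that stood apart from the other 3 by more than Dixon's critical share of the range, and chance flags about 1 in 20 such sets. Control 658 was the lowest control for Gsta2, at 7.79 against 8.39 to 8.48, a gap of 0.862 of the range. Mfn1 LKO mouse 651 was the highest Mfn1 LKO mouse for Gstm3, at 6.25 against 5.89 to 5.93, a gap of 0.865 of the range, on a probe near the lowest signals of the array.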

How the results depend on the processing

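Across 21 alternatives, 0 member genes passed an adjusted p of 0.05 in any, and 160 of 189 values of the 9 member genes kept their direction. Of these 160, 40 equalled the reported value by construction. They fell under 4 alternatives (no filter, a filter on all 8 arrays, limma-trend and the balanced block of array signal, chosen after seeing the data) and in the mean of probes for genes with 1 probe. The other 120 of the 160 were not fixed in this way and kept their direction, but they are not separate checks. The deposited log2 values lay within 0.0066 of quantile normalized log2 intensities and so nearly repeated the alternative without background correction. Gstp1 kept its direction in all 21, between -0.32 and -0.039. The other 29 changed sign, and more of them did so with 1 mouse left out than with all 8 mice. With all 8 mice, Gstm2 changed sign with a common median (-0.00038), a common 75th percentile (-0.023) and the mean of probes (-0.051). Gstm6 did so with the latter 2 (-0.0014 and -0.0039). Gstt1 did so with the 75th percentile (-0.0098) and array weights (-0.011), and Gsta3 with array weights (-0.0022). The macrophage covariate reversed Gsta2 (-0.096), Gstm1 (-0.14) and Gstm4 (0.0078), and the cause was not tested. With 1 mouse left out in turn the difference lay between -0.14 and 0.59 for Gsta2, -0.022 and 0.035 for Gsta3, -0.22 and 0.033 for Gsta4, -0.044 and 0.23 for Gstm1, -0.065 and 0.14 for Gstm2, -0.14 and 0.035 for Gstm4, -0.067 and 0.064 for Gstm6, -0.058 and 0.089 for Gstt1, and -0.22 and 0.0096 for Gstp1 probe ILMN_1223230. The family median lay between -0.058 and 0.037. With 1 mouse left out, medians of related lists lay on both sides of 0 for other glutathione transferases (-0.050 to 0.014), glutathione synthesis (-0.036 to 0.032), conjugate export (-0.065 to 0.052), NRF2 targets (-0.016 to 0.085), xenobiotic receptor targets (-0.045 to 0.070), pericentral markers (-0.093 to 0.041) and periportal markers (-0.025 to 0.049), and above 0 for peroxidases (0.077 to 0.11) and macrophage markers (0.20 to 0.40). The median of the transcriptional regulators of the family lay below 0 with any 1 mouse left out (-0.061 to -0.016). Over all genes 1 passed, and 2 with no filter or with array weights, and between 1 and 3 with 1 mouse left out, 3 without Mfn1 LKO mouse 701. Over all probes 2 passed, 4 with limma-trend and robust estimation, and between 2 and 4 with 1 mouse left out, 4 without mouse 701. The cause was not tested. No paired analysis was possible because the groups share no animal numbers. Signals near the lowest of the array, as for Gstm3, bound no change in transcript.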

Other observations

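The Y-linked Eif2s3y read between 8.17 and 8.87 in all 8 mice, and both Xist probes, between 5.74 and 6.01, did not pass the filter. Of 9 tested male-biased genes 2 lay above 0 and 7 below it (Mfn1 LKO minus control), with a median of -0.083. With 1 mouse left out that median lay between -0.30 and 0.19, and it was above 0 without control 641 (0.19), Mfn1 LKO mouse 651 (0.025) or 701 (0.0047). Cyp4a12a, a male-specific fatty acid hydroxylase, had the smallest p, with 10.86 ± 0.91 against 11.84 ± 0.41 in the knockouts (SD, n = 4 each) and a difference of 0.98 (limma adjusted p = 0.409). Mup20, a urinary protein of males, read 10.14 ± 1.14 and 10.90 ± 0.17 (SD, n = 4 each), and Elovl3 differed by -0.26. Of 5 tested female-biased genes 2 were higher and 3 lower, with a median of -0.023 (-0.092 to 0.25 with 1 mouse left out), Acot3 at 0.52, Cyp17a1 at 0.36 and Cyp2b13 at -0.19. None of these genes passed an adjusted p of 0.05.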
